A study of Homo sapiens with 8 samples.

Results

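Chemokines are small secreted proteins that draw leukocytes toward the cells that release them, and they are named by the spacing of their first cysteines. CXC chemokines with a Glu-Leu-Arg (ELR) motif before those cysteines bind CXCR1 and CXCR2 and attract neutrophils, while CXC chemokines without it and the CC chemokines act mainly on monocytes, lymphocytes and dendritic cells. Epithelial tumor cells can make ELR chemokines themselves, and their genes are known to respond to interleukin-1, TNF and the transcription factors NF-κB and AP-1.

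The transcripts of 10 chemokine genes were followed in MIA PaCa-2 cells after pachymic acid (PA) treatment. They comprised 6 ELR CXC chemokines (CXCL1, CXCL2, CXCL3, CXCL5, CXCL6 and CXCL8), 1 CXC chemokine without the motif (CXCL10) and 3 CC chemokines (CCL2, CCL5 and CCL20). The members were chosen by their measured values, since the changes between PA and control on these same arrays were known when the list was drawn up. Every probe set annotated with 1 of these symbols alone was included, which gave 20 of the 49395 probe sets on the array and 10 of 18132 genes. Values of the members between PA and control are therefore a description. Thresholds that members passed or missed are given for completeness and are not read as support.

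MIA PaCa-2 is an established human pancreatic carcinoma line, and PA is a triterpenoid of the fungus P. cocos. RNA was measured on 8 Affymetrix Human PrimeView arrays, 4 of cells given 30 μM PA for 24 h and 4 of control cells given its solvent DMSO (0 μM PA) for the same time, all in medium with fetal bovine and horse serum. No other treatment distinguished the groups, and all arrays came from a single cell line at 1 dose and 1 time. The study's methods call the treatments quadruplicates, and neither they nor the labels say whether these came from separate cultures. A p-value therefore covers only the spread between these 8 arrays, which may be technical. Signals are log2 values, on which a difference of 1 means a doubling. Signals of different genes were not set against each other, since probes differ in brightness.

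All 8 arrays had similar median signals (5.71 to 5.77), and array-to-array correlations were 0.9964 to 0.9977 within groups and 0.9931 to 0.9964 between them. The mean of 8 GC-rich background control probe sets was 6.77 ± 0.15 (SD, n = 4) in the controls, while PA arrays averaged 7.03 ± 0.082 (two-sided exact permutation p = 0.0571, with 0.0286 the smallest possible). Of 9 epithelial markers the keratins KRT8, KRT18 and KRT19 were bright (11.50, 13.39 and 12.70 in control), whereas KRT7 (4.39), EPCAM (3.97) and CDH1 (4.14) lay near the signal limit. KRT8 and KRT18 rose by 0.18 and 0.185 (limma, adjusted p = 0.0309 and 0.0146). CLDN4 fell by 0.31 (adjusted p = 0.00947), and the other 6 did not pass. Of 10 leukocyte markers, 5 including PTPRC were below the limit, and the mean over all 10 was 4.81 to 4.89 in control and 4.77 to 4.84 in PA arrays. Of the 5 above it, the monocyte marker CD14 fell from 7.35 to 6.83 (limma, adjusted p = 3.52e-04), and the other 4 did not pass (CD68 0.11, CD3E 0.08, CSF3R 0.12 and ITGAM -0.13). Of 10 fibroblast and endothelial markers 8 were above the limit, and COL1A2 alone passed (-0.53, adjusted p = 0.00572), with list means of 5.68 to 5.78 in control and 5.73 to 5.80 in PA arrays. Counted over single probe sets, 1 of 8 for KRT8, 1 of 2 for KRT18 and 1 of 3 for CLDN4 passed. The counts were 2 of 2 for CD14 and 3 of 6 for COL1A2. The part of these markers in the chemokine values was not tested.

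Promoter sequences were available from RefSeq (GRCh38.p14) for 8 of the 10 genes and span 250 bases before to 50 after the transcription start. The 130 bases before the start are shown for the 6 ELR chemokines, because the 9 member probe sets with the largest changes belong to 4 of them and all 6 lie in 1 gene cluster on chromosome 4. Matches to the NF-κB binding motif (the kappa-B consensus or the fixed sequence GGAATTTCC, called the core here, on either strand) are in capitals. The windows lie at chr4:73740439-73740568 (plus strand), chr4:73869263-73869392 (plus strand), chr4:74099196-74099325 (minus strand), chr4:74038690-74038819 (minus strand), chr4:73998678-73998807 (minus strand) and chr4:73836548-73836677 (plus strand), in the order printed.
CXCL8: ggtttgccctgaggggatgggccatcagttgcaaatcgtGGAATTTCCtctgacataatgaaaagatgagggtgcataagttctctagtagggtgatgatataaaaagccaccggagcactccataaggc
CXCL1: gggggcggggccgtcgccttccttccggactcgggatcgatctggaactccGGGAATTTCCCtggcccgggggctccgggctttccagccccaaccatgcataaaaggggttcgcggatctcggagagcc
CXCL2: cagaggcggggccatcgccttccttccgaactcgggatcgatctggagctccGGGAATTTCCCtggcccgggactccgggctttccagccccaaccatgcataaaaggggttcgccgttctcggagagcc
CXCL3: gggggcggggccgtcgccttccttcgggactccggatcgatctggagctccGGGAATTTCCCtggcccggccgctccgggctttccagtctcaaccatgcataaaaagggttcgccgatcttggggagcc
CXCL5: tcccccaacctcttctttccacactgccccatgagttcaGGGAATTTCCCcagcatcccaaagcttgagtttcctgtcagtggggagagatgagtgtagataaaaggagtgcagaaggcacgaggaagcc
CXCL6: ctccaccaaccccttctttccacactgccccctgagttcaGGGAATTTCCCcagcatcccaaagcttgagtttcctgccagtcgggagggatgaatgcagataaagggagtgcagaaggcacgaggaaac

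The core GGAATTTCC was found in 7 of the 8 chemokine promoters and in 0.461% of all 35116 promoters of the same length. The longer kappa-B consensus, which overlaps the core in 6 of them, was also found in 7 of 8, against 11.3% of all promoters. CXCL8 held the core alone, from -91 to -83. The core has no variable letters and is identical to this CXCL8 site, so a motif of this spelling had to match there. Windows of CXCL1, CXCL2 and CXCL3 are closely alike, as are those of CXCL5 and CXCL6, so their matches are not independent. The shares for both motifs are therefore a description, and no enrichment is read from them. The core began at -78 in CXCL1 and CXCL3, at -77 in CXCL2, at -90 in CXCL5 and at -89 in CXCL6. CXCL10 held a core match farther from the start (-176 to -168) and CCL20 held only the consensus. Of the other motifs searched, the AP-1 motif TGANTCA was found only in CXCL8 (-137 to -131; 7.71% of all promoters) and the C/EBP motif TTNNGCAA only in CXCL2 (10.5%). The interferon response motif GAAANNGAA was present in CXCL2, CXCL3 and CXCL10 (8.11%), TATAAA in CXCL8 and CCL20 (11.5%) and the C/EBP-ATF motif TGATGNAA in 0 of the 8 (3.62%).

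The 6 ELR windows fell into 3 sets by sequence. Over the 130 bases, CXCL1, CXCL2 and CXCL3 were identical to each other at 87.8% to 92.4% of aligned positions, and CXCL5 and CXCL6 at 90.8%. Identity between these sets was 48.6% to 55.6%, and CXCL8 matched the other 5 at 44.5% to 50.4%. A motif match is a description of the letters and does not show that a factor binds there.

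**Figure D1:**
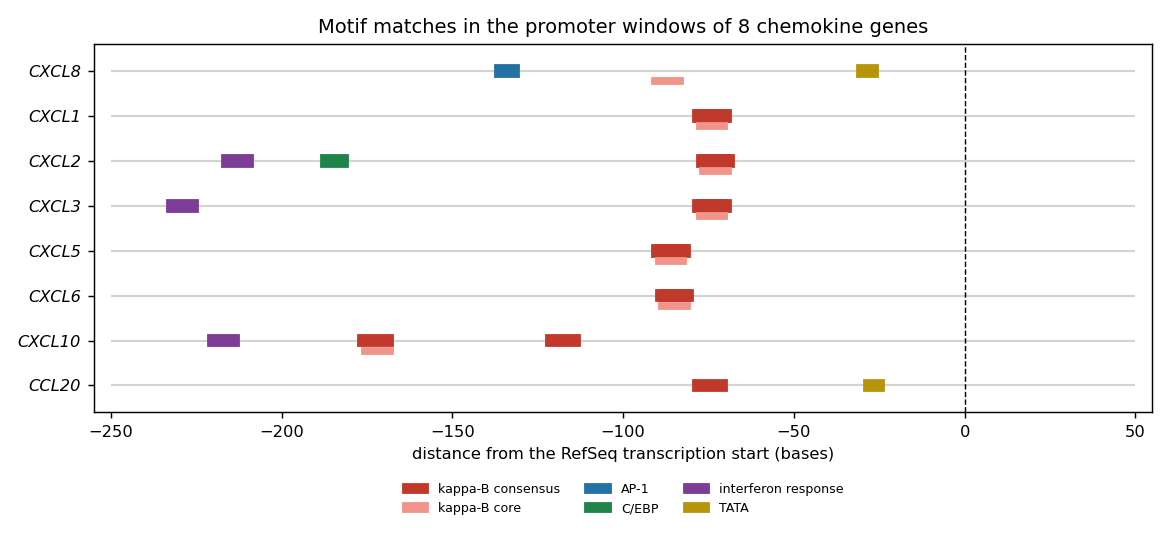
Motif matches in the RefSeq promoter windows of 8 chemokine genes, one row per gene, against distance from the transcription start in bases. Colored blocks are matches on either strand, with the kappa-B core drawn just below the consensus it overlaps, and the core lies between -91 and -69 in all 6 ELR genes.

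Of the 20 member probe sets, 16 from 7 genes reached a mean of 4 in at least 1 group, the limit below which the authors' table counted a signal as not detectable. CXCL10, CCL2 and CCL20 stayed below it, as did 1 of 2 CXCL6 probe sets. At an adjusted p under 0.05 and at least 1.5-fold, 9 of the 16 were raised and 0 lowered, beside 0.475% raised and 0.658% lowered of all 38748 probe sets tested. At any fold, 12 were raised and 1 lowered, beside 8.0% and 9.07% of all. The PA arrays did not overlap the controls and were higher in 10 of the 16 and lower in 1, beside 11.1% and 12.2% of all. When each gene was read at its brightest probe set, 5 of 7 were raised and 1 lowered at any fold, beside 9.69% and 11.9% of 15226 genes. The median change was 1.11 over the 16 probe sets and 0.02 over all probe sets. Because the list was drawn up from these changes, nothing is read from these counts.

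CXCL8, known as interleukin-8 and the best studied neutrophil attractant, was higher in all PA arrays. At its brightest probe set (11718841_s_at) the signal was 11.40, 11.36, 11.45 and 11.52 in control arrays 1 to 4, and 12.64, 12.73, 12.72 and 12.69 in PA arrays 1 to 4. In bulk RNA, more transcript per cell and more cells making it cannot be told apart. The groups did not overlap, and the lowest PA array exceeded the highest control array by more than the whole range within either group. The change was 1.26 on the log2 scale (SE 0.051), or 2.4-fold. The other 2 probe sets gave larger changes, 1.51 at 11754026_a_at (2.84-fold) and 1.56 at 11763226_x_at (2.95-fold), again with no overlap. These 3 values ranked 4th to 12th of 38748 from the largest rise.

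CXCL1, CXCL2 and CXCL3 encode the closely related GRO chemokines, which act on neutrophils through CXCR2. CXCL1 at 11719366_s_at measured 11.28, 11.18, 11.23 and 11.27 in control arrays and 12.27, 12.30, 12.25 and 12.25 in PA arrays. The groups were well apart, with a change of 1.03 (SE 0.045; 2.04-fold). Its dimmer probe set 11754114_a_at read 9.58 to 9.81 in control and 10.95 to 11.11 in PA arrays (2.45-fold). For CXCL1 as for CXCL8, the brightest probe set thus gave the smallest change of the gene, by 0.27 for CXCL1 and by 0.24 and 0.30 for CXCL8.

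CXCL2 at 11744128_x_at read 9.86, 9.87, 9.68 and 9.82 in control arrays and 10.92, 11.05, 11.01 and 11.05 in PA arrays. All PA arrays were higher, and the change was 1.2 (SE 0.059; 2.30-fold). The probe set 11744127_at, whose name marks it as specific to a single gene, gave 2.44-fold. CXCL3 varied more among PA arrays than the other two. At 11728477_at its signals were 7.55, 7.68, 7.58 and 7.59 in control and 8.75, 8.89, 8.99 and 9.18 in PA arrays. The groups did not overlap, and the change of 1.35 (SE 0.086; 2.55-fold) was matched by 2.47-fold at 11728476_a_at.

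The GRO genes are closely related, so some probes may read transcripts of more than 1 of them. Their transcript sequences were not compared here. A probe set annotated to both CXCL1 and CXCL2 lay outside the selection and gave 9.50 to 9.63 in control and 10.65 to 10.84 in PA arrays (2.26-fold). Its change lay between those of both CXCL1 probe sets.

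CXCL5 and CXCL6 are a second pair of related ELR chemokines, and both changed less. CXCL5 at 11728716_x_at read 10.86, 10.94, 10.71 and 10.74 in control arrays and 10.98, 11.22, 11.25 and 11.22 in PA arrays. The groups were separated by a narrow gap, between control array 2 and PA array 1. The change was 0.36 (SE 0.077; 1.28-fold). Both other CXCL5 probe sets gave log2 changes of 0.35 and 0.33, with PA array 1 inside the control range. They fell short of the threshold in 9 and 11 of 17 alternative settings, in this order. A probe set shared by CXCL5 and GLYR1, outside the selection, read 10.12 to 10.54 in control and 10.39 to 10.78 in PA arrays.

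CXCL6 at 11730801_at measured 5.68, 6.11, 5.55 and 5.74 in control arrays and 5.43, 6.10, 6.11 and 6.08 in PA arrays. The groups overlapped, and PA array 1 was the lowest of all 8. The change was 0.16 with a 95% confidence interval of -0.22 to 0.54, an interval that holds both no change and a rise of the size seen for CXCL5. The second CXCL6 probe set stayed below the signal limit (2.96 to 3.52).

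PA array 1 stood apart in more than CXCL6. It was the lowest PA array, ties included, in 10 of the 16 member probe sets above the limit and in all 6 of those for CXCL3, CXCL5 and CXCL6, beside 31.4% of all probe sets tested. Among control arrays, replicate 3 was the lowest in 5 of those 6, beside 28.4% of all probe sets tested. Of those 6, 3 belong to CXCL5, so they are not independent. PA array 1 also had the highest GC-rich background signal (7.12, beside 6.92 to 7.05 in the other PA arrays), and control array 3 the highest of the controls (6.95). Without PA array 1, the change of CXCL5 was 0.42 and that of CXCL6 was 0.33. With the background signal as a covariate, CXCL5 gave 0.56 and CXCL6 gave 0.61, while CXCL8, CXCL1, CXCL2 and CXCL3 gave 1.22, 1.00, 1.32 and 1.44. The CXCL6 value did not pass in that fit (limma, adjusted p = 0.141). Background was 6.59 to 6.95 in control and 6.92 to 7.12 in PA arrays, so it is partly confounded with PA. Changes from this fit are therefore less precise, here and wherever the covariate is used below.

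**Figure D2:**
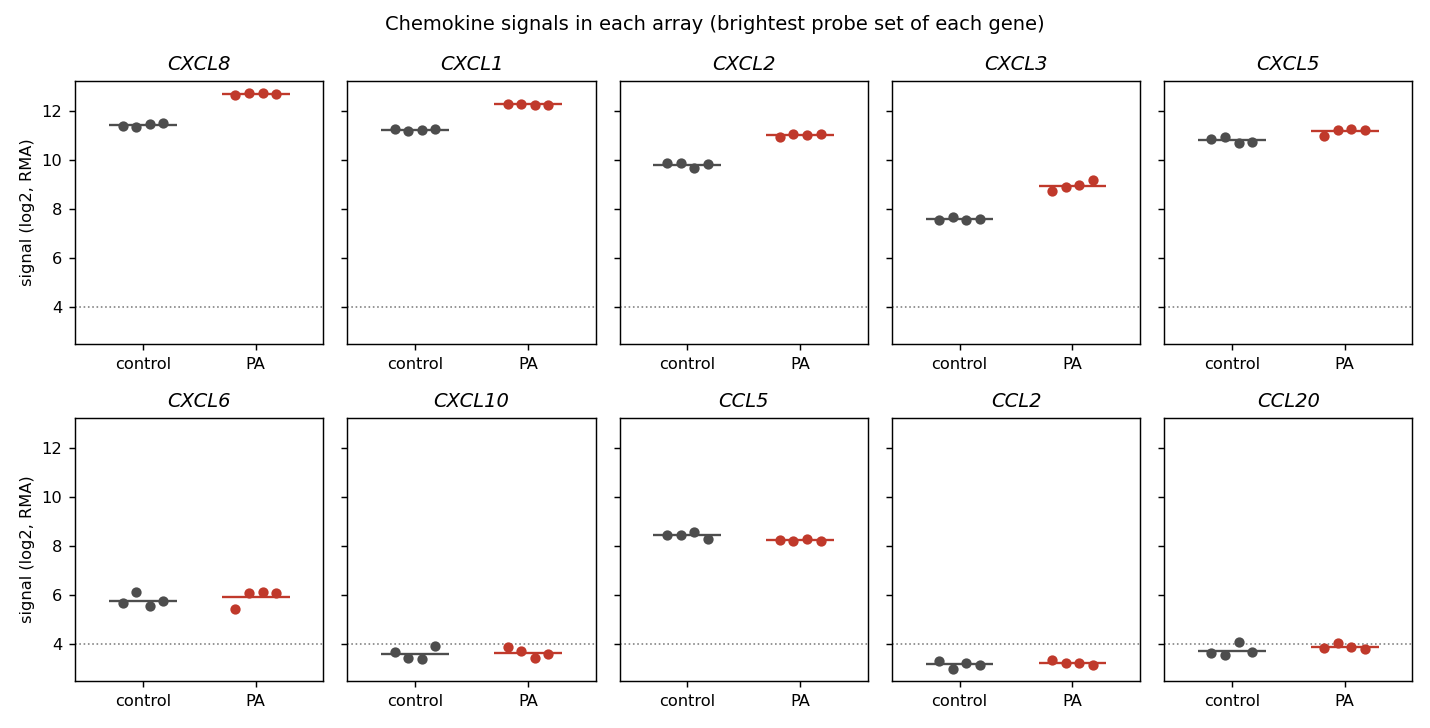
Log2 RMA signal of each chemokine gene at its brightest probe set in 4 control and 4 PA arrays, with horizontal bars at group means and a dotted line at the signal limit of 4. The PA arrays of CXCL8, CXCL1, CXCL2 and CXCL3 lie clear of the control arrays, while CXCL10, CCL2 and CCL20 lie near or below the limit.

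CXCL10, an interferon-induced chemokine that attracts T cells through CXCR3, was at the signal limit in both groups. Its signals were 3.67, 3.45, 3.39 and 3.92 in control arrays and 3.87, 3.72, 3.43 and 3.59 in PA arrays. The groups overlapped throughout. At this brightness a change of CXCL10 was not detectable, and the same holds for CCL2 and CCL20.

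Of the CC chemokines, CCL2, a monocyte attractant acting on CCR2, read 2.99 to 3.31 in control and 3.14 to 3.36 in PA arrays. CCL20, the ligand of CCR6 on dendritic cells and some lymphocytes, read 3.62, 3.55, 4.10 and 3.67 in control arrays and 3.86, 4.05, 3.88 and 3.80 in PA arrays. Its means of 3.74 and 3.90 were both under the limit of 4. For neither gene did the groups separate.

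CCL5, also called RANTES and an attractant of T cells and monocytes, was the CC chemokine with a signal above the limit, and it moved in the opposite direction to the ELR genes. At 11753810_a_at it read 8.45, 8.45, 8.55 and 8.30 in control arrays and 8.24, 8.20, 8.26 and 8.21 in PA arrays. All PA arrays were lower, by a narrow margin, with a change of -0.21 (SE 0.059; 1.16-fold lower). The groups overlapped at both other CCL5 probe sets, with changes of -0.15 and -0.22. In the fit over probe sets this one fell short of the threshold in 12 of 17 alternative settings, while its change stayed between -0.17 and -0.26.

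**Figure D3:**
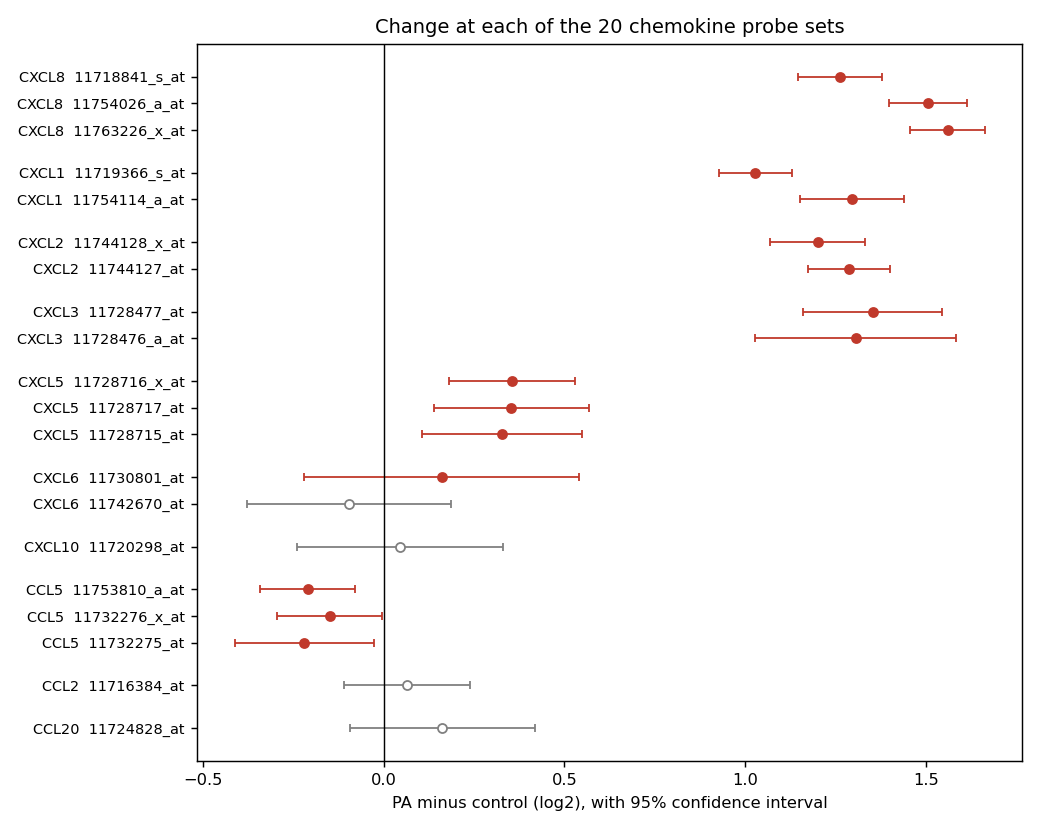
PA minus control on the log2 scale at each of the 20 chemokine probe sets, with 95% confidence intervals. Filled points are the 16 probe sets above the signal limit and open points the 4 below it, and the 9 probe sets of CXCL8, CXCL1, CXCL2 and CXCL3 lie between 1.03 and 1.56 while those of CXCL5 lie between 0.33 and 0.36.

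The 6 ELR genes lie together on the long arm of chromosome 4, and 9 protein-coding genes follow each other from CXCL8 to CXCL2 in the RefSeq order. The 3 that are not members are platelet-derived chemokine genes. PF4V1 changed by 0.16 (limma, adjusted p = 0.0313), PF4 by 0.15 (adjusted p = 0.316) and PPBP by -0.20 (adjusted p = 0.156). PF4V1 passed the test in 8 of 17 alternative settings. The members with the largest changes were thus not contiguous: CXCL6 and PF4V1 lie between CXCL8 and CXCL1, and PF4, PPBP and CXCL5 lie between CXCL1 and CXCL3. Beyond CXCL2, EPGN, which encodes an EGF family ligand and was picked out after its value was seen, rose by 0.48 (SE 0.062; adjusted p = 0.00152). MTHFD2L (0.29) and BTC (-0.15) did not pass. EREG, another EGF family ligand, did not pass at its brightest probe set (0.10), while its other 3 rose by 0.42, 0.45 and 0.60 (adjusted p = 0.00101, 0.00117 and 0.0302 over all probe sets).

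**Figure D4:**
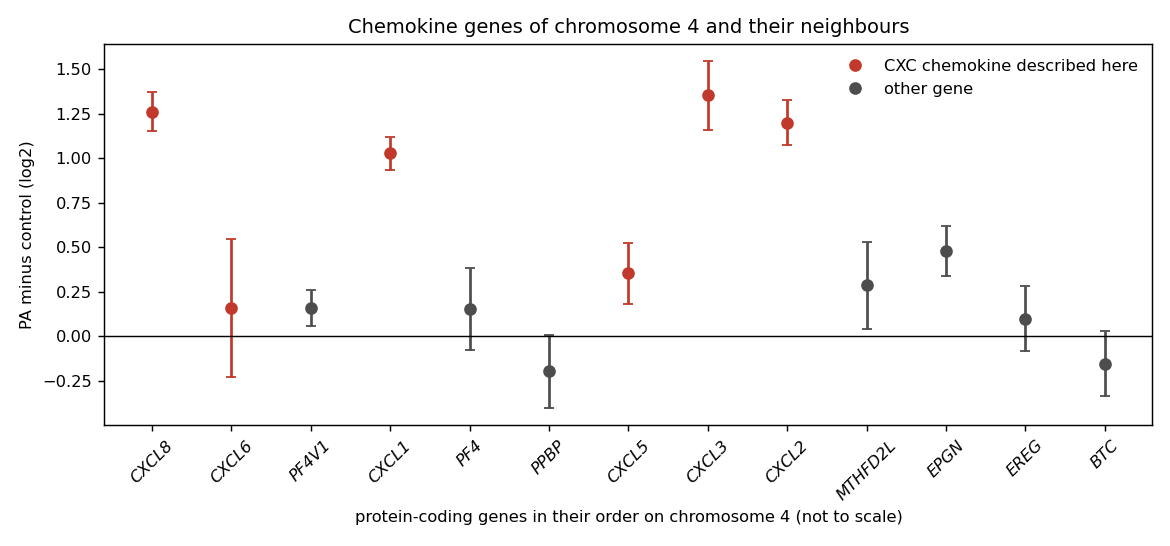
PA minus control on the log2 scale, with 95% confidence intervals from the fit over genes, each at its brightest probe set, for the protein-coding genes from CXCL8 to CXCL2 and the next ones beyond CXCL2, in their order on chromosome 4. The x axis is not to scale, AREG has no probe set of its own and is left out, and the 4 genes above 1.00 are interleaved with genes near 0.

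Other chemokine genes were counted in the same way. This list and those that follow were drawn up with earlier results of these data known, so nothing is read from their counts. Of 38 listed, 20 were above the signal limit, of which 3 rose, 1 fell and 16 did not pass (limma, adjusted p under 0.05 at any fold), beside 9.69% and 11.9% of all genes raised and lowered, with a median change of 0.06 beside 0.02 over all genes. Besides PF4V1, those that rose were CXCL16, the membrane-bound ligand of CXCR6 (0.20, adjusted p = 0.0182), and CCL26, an eosinophil attractant (0.23, adjusted p = 0.0461). CXCL17, a mucosal chemokine, fell by 0.22 (adjusted p = 0.0358). None of these reached 1.5-fold, and CCL26 passed the test in only 3 and CXCL17 in 7 of 16 alternative settings. Over single probe sets, 1 of 2 for PF4V1, 1 of 2 for CXCL16 and 0 of 1 for CCL26 passed.

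Among 23 chemokine receptor genes, 14 were above the limit, of which 0 rose and 1 fell, beside 9.69% and 11.9% of all genes. The receptors of the ELR chemokines were dim in both groups. CXCR1 averaged 4.68 in control and 4.65 in PA arrays and CXCR2 averaged 4.01 and 4.04. The 1 receptor that fell was CCR2, whose ligands include CCL2. It went from 4.06 to 3.79 (adjusted p = 0.0314), both means next to the limit, and passed in 5 of 16 alternative settings. CXCR4, the receptor of CXCL12, gave 0.14 (adjusted p = 0.262).

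Cytokines that induce ELR chemokines in epithelial cells were measured on the same arrays. Of 11 listed, 6 were above the limit, of which 2 rose and 0 fell, beside 9.69% and 11.9% of all genes, with a median of 0.30. IL1B, which encodes interleukin-1β, rose from 6.99 to 7.92 (1.90-fold, SE 0.069 on the log2 scale; limma, adjusted p = 1.76e-04). TNF rose from 5.24 to 5.89 (1.57-fold, adjusted p = 0.00279). IL1A changed by 0.42 with overlapping groups (adjusted p = 0.0782), and IL6 by 0.18 (adjusted p = 0.416). When the GC-rich background signal entered as a covariate, TNF changed by 0.63 beside 0.65 without it, at an adjusted p of 0.0798.

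Receptor and adaptor genes were listed as well, for some of these cytokines and for Toll-like receptors (TLR2 and TLR4). Of 13 above the limit, 1 rose and 3 fell, beside 9.69% and 11.9% of all genes, with a median of 0.02. The one that rose was IRAK2, a kinase that acts downstream of the interleukin-1 receptor (0.67, SE 0.093, adjusted p = 0.00192). IL1R1, the signaling receptor for interleukin-1, fell by 0.20 (adjusted p = 0.0307), the adaptor gene MYD88 fell by 0.22 (adjusted p = 0.035) and IL17RA fell by 0.19 (adjusted p = 0.0495). These 3 passed in 10, 7 and 4 of 17 alternative settings. In the fit over probe sets, 1 of 2 IRAK2, 1 of 2 IL1R1, 1 of 4 MYD88 and 0 of 1 IL17RA probe sets passed.

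Of 15 genes of the NF-κB system above the limit, 7 rose and 0 fell, beside 9.69% and 11.9% of all genes, with a median of 0.33. As for the other lists, this count is a description only. The largest changes were those of TNFAIP3, which encodes the A20 inhibitor (1.08, SE 0.10, adjusted p = 4.08e-04), and NFKBIZ, a nuclear co-regulator (1.06, SE 0.084, adjusted p = 2.05e-04). RELB (0.77, adjusted p = 3.98e-04) and NFKB1 (0.44, adjusted p = 4.66e-04) encode subunits. NFKBIA (0.64), NFKBIE (0.45) and NFKBIB (0.35) encode inhibitors that hold the subunits in the cytoplasm. RELA, which encodes the p65 subunit, changed by -0.13 and did not pass (adjusted p = 0.0732). With the GC-rich signal as a covariate, 5 of the 7 remained past the threshold, while NFKBIE and NFKBIB gave 0.26 and 0.14.

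Of 11 AP-1, ATF and C/EBP factors, 6 rose and 0 fell, beside 9.69% and 11.9% of all genes, with a median of 0.35. ATF3, a stress-induced factor, rose from 5.84 to 7.56 (3.30-fold, adjusted p = 5.35e-06). FOS (0.69, adjusted p = 9.19e-04) and FOSL1 (0.64, adjusted p = 0.00745) each passed 1.5-fold. JUND (0.38), CEBPB (0.37) and JUN (0.23) rose less, and JUN passed in 8 of 17 alternative settings. With the same covariate 3 of the 6 remained, which were ATF3, FOS and CEBPB, while FOSL1 gave 0.35, JUND 0.24 and JUN 0.30.

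**Figure D5:**
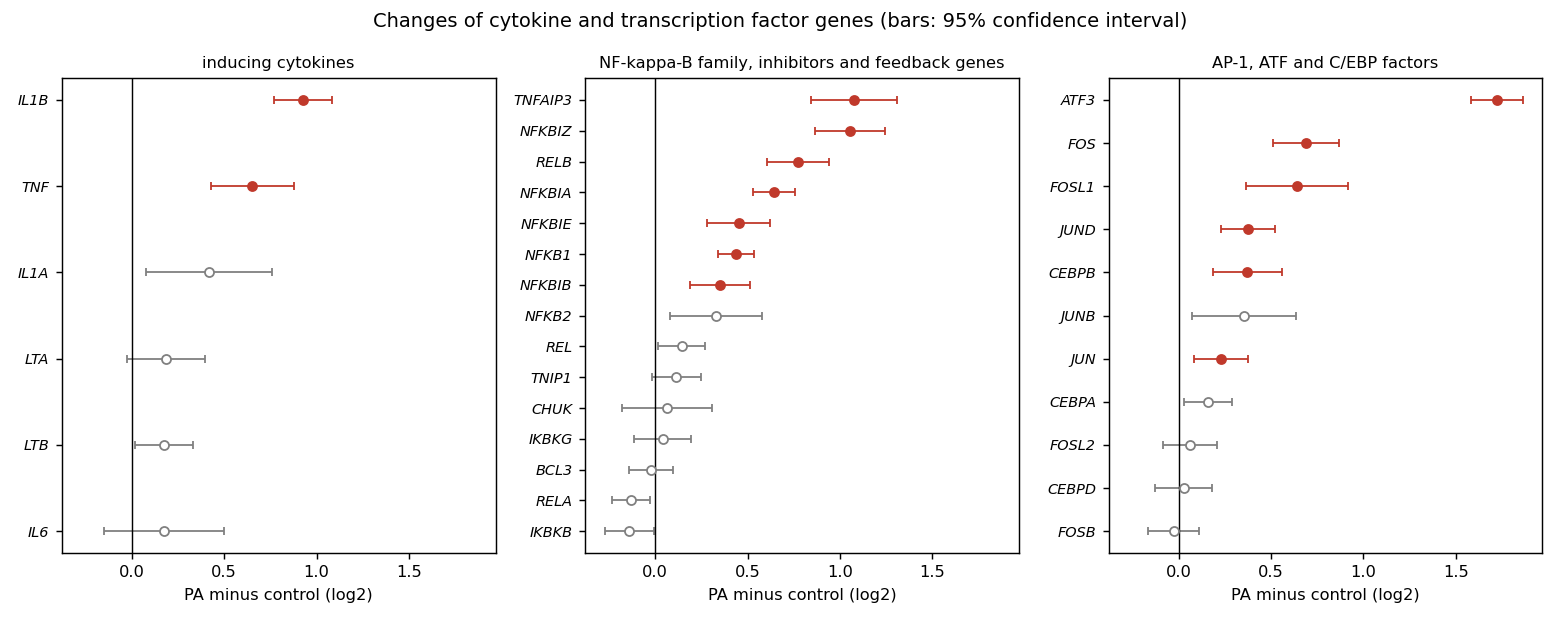
PA minus control on the log2 scale with 95% confidence intervals for cytokine, NF-κB and AP-1, ATF and C/EBP genes above the signal limit, filled where the adjusted p was under 0.05. Filled points number 2 of 6, 7 of 15 and 6 of 11, and all lie to the right of 0. The lists were drawn up with earlier results known, so nothing is read from these counts.

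ELR chemokine transcripts are known to be short-lived through AU-rich elements, and proteins that bind such elements or cut such transcripts were listed for that reason. Of 10 measured, 2 rose and 1 fell, beside 9.69% and 11.9% of all genes. ZC3H12A, an RNase that cuts inflammatory transcripts, rose by 0.36 (adjusted p = 0.0115), ZFP36L1 rose by 0.18 (adjusted p = 0.0146) and ZFP36L2 fell by 0.20 (adjusted p = 0.0294). In the fit over probe sets, only 1 of 6 ZFP36L1 and 1 of 4 ZFP36L2 probe sets passed. The other ZFP36L2 probe sets gave 0.24, 0.13 and -0.12, so the direction differed between probe sets of this gene. ELAVL1, which stabilizes such transcripts, changed by 0.09 (adjusted p = 0.121). The 3 that had passed missed the threshold once the GC-rich signal was included, with changes of 0.15, 0.13 and -0.11 (adjusted p = 0.347, 0.249 and 0.46). Over all probe sets, that signal left 369 raised and 237 lowered, instead of 3098 and 3516. The part of the background in lost calls was not tested.

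Interferon-induced genes, to which CXCL10 belongs, were listed too. Of 12 above the limit, 3 rose and 4 fell, beside 9.69% and 11.9% of all genes, with a median of -0.07. GBP1 rose by 0.81 (1.76-fold, adjusted p = 0.00138) and IRF1, a factor known to act on the CXCL10 promoter, rose by 0.29 (adjusted p = 0.00331). IRF9 fell by 0.49 (adjusted p = 0.00242), IFIT1 fell by 0.32 (adjusted p = 0.00776) and IFIT2 fell by 0.25 (adjusted p = 0.00829). In the fit over probe sets, 1 of 4 IRF9 and 1 of 2 IFIT2 probe sets passed. IRF1 passed in all 17 alternative settings, while the other 4 missed the threshold with the covariate at changes of similar or larger size. These were 0.79 for GBP1 and -0.53 for IRF9 (adjusted p = 0.0527 each), -0.40 for IFIT1 (0.0625) and -0.25 for IFIT2 (0.111).

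The genes whose profile over the 8 arrays lay nearest to that of CXCL8 were found by root mean square distance, with each gene centered on its control mean and read at its brightest probe set. TNFRSF9, a TNF receptor family member known as 4-1BB, was nearest at 0.067. Its signals were 6.78 to 6.87 in control and 7.89 to 8.08 in PA arrays. CXCL2 (0.095), CCN2 (0.13), SERPINB8 (0.14) and CXCL3 (0.14) followed among 15226 genes. CXCL1 lay at 0.17, while CXCL5 (0.65), CXCL6 (0.82) and CCL5 (1.05) were far from it. These distances describe 8 arrays of 2 groups, and mostly reflect the size of the change between them.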

How the data were processed

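The deposited values are log2 signals that the authors made in Partek with RMA, that is with background correction, normalization by quantiles and summarization by median polish, rounded to 2 decimals. Versions are not given in the sources used here, nor is it stated whether arrays of a second cell line entered the normalization. Background correction and quantile normalization compress changes of dim probe sets and fix the overall distribution of each array. Symbols came from the platform annotation, which gives a single symbol to 44988 of 49395 probe sets, several to 1832 and none to 2473, beside 102 controls.

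Arrays were grouped by their labels. Probe sets with a mean of at least 4 in the higher group were tested (38748), and control probe sets were left out. For genes, the single-symbol probe set with the highest mean over all 8 arrays was used (15226). The groups were compared in limma 3.58.1 (lmFit, eBayes; R 4.3.3), with Benjamini-Hochberg adjustment over all probe sets or genes, at an adjusted p under 0.05, with or without a 1.5-fold limit. The methods' ANOVA held a second cell line that is not analysed here. Values of probe sets below the limit came from a fit without the filter. Depth is not a measure for arrays, and their number limits the precision.

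The members and all gene lists were chosen with earlier results of these data known. Named genes are the members and the 5 genes nearest to CXCL8. From each list came every gene past 1.5-fold and up to 4 others with the smallest adjusted p. CXCR1, CXCR2, IL6, RELA and EPGN were added after their values were seen. Cell type markers and the chromosome 4 neighbors were named outside this rule, the neighbors in their order from CXCL8 to BTC. Motifs were searched on both strands of RefSeq promoter sequences, and window identity came from global alignment (match 1, mismatch -1, gap -2). The scripts were tested on simulated data. Alternatives covered the filter, normalization, variance model, a replicate block, thresholds, the GC-rich background signal as a covariate, and leaving out each array. Plots used matplotlib 3.10.9 under Python 3.11.15.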

Additional observations from a re-analysis of the deposited data

Results flagged for a closer look

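In 2 of the 40 groups of 4 arrays tested over the 20 chemokine probe sets, 1 array lay far from the other 3 by Dixon's ratio, which chance alone gives in about 1 of 20 groups, or 2 of 40. Both were PA array 1. At the CXCL5 probe set 11728716_x_at it read 10.98, beside 11.22 to 11.25 in the other PA arrays. At the CXCL6 probe set 11730801_at it read 5.43, beside 6.08 to 6.11. This array also had the highest GC-rich background signal of all 8 (7.12), and the part of that signal in both values was not tested.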

How the results depend on the processing

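CXCL1, CXCL2, CXCL3, CXCL5 and CXCL8 changed in the same direction in all 18 alternative settings, by 1.00 to 1.16, 1.16 to 1.32, 1.28 to 1.44, 0.32 to 0.56 and 1.22 to 1.44 in this order. CXCL6 ranged from 0.087 to 0.61 and CCL5 from -0.17 to -0.26. These ranges describe genes chosen by the same values and are no independent support. The number of member probe sets lowered at any fold was 0 instead of 1 without a filter, with quantile normalization, with an ordinary linear model, with the replicate block and with the covariate, and without control array 1, 2 or 3 or any single PA array, which in each case was the brightest CCL5 probe set. With the GC-rich covariate, CCL2 gave -0.058 and CCL20 gave -0.11, both below the signal limit.

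Over all probe sets, the replicate block left 1585 raised and 2003 lowered at any fold, where the plain fit gave 3098 and 3516. With the covariate, 369 were raised and 237 lowered at any fold, and 81 were lowered at least 1.5-fold instead of 255. At a 1.2-fold limit 1853 were raised and 2382 lowered, at 2-fold 30 and 12, and at an unadjusted p under 1e-05 with 1.5-fold 115 and 75, where 1.5-fold gave 184 and 255. Leaving out 1 array at a time gave 9 to 9 member probe sets raised at least 1.5-fold, 0 to 0 lowered, 10 to 12 raised at any fold and 0 to 1 lowered at any fold. Over all probe sets it gave 158 to 206 raised and 172 to 336 lowered at least 1.5-fold, and 1855 to 2977 raised and 2185 to 3575 lowered at any fold. The counts raised fell by more than 1.5 times without control array 1 (1995) or 2 (1923) or PA array 2 (1855), and the counts lowered without control array 2 (2185) or PA array 2 (2309). The cause of these shifts was not tested. Same-numbered control and PA arrays deviated from their group means with correlations of -0.153 to 0.0527, and 0 of 4 control arrays matched its own number best. Of 36 named genes outside the members that passed, cell type markers left out, 15 passed in every alternative. The markers were not followed over the alternatives. With 4 arrays a group, small changes near the signal limit, as for CXCL10, CCL2 and CCL20, could not be resolved.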
